A study of Mus musculus with 4 samples.

Results

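The MS4A genes encode small tetraspan membrane proteins and lie in 1 cluster, which in the mouse is on chromosome 19. Of the 21 gene rows whose symbol starts with Ms4a, the 7 described here are Ms4a4a, Ms4a4b, Ms4a4c, Ms4a6b, Ms4a6c, Ms4a6d and Ms4a7, taken by symbol from the 56832 gene rows of each file. They were read in RNA sequencing libraries of naive microglia (4 replicates of 1 group), which are the macrophages that live in the brain itself. The mice were female C57BL/6 animals with no intervention, littermates of mice that received transplants, and the transplanted groups were not analysed here. Cells were sorted as CD45 low or intermediate and CD11b-positive. RNA was amplified as cDNA with a kit for low input. The sources used here give no age and do not say which or how many animals stand behind a library, so p-values measure only the spread between these libraries, which may be technical.

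MS4A proteins are best known as subunits or companions of immune receptors. In macrophages MS4A4A is known to associate with dectin-1, the receptor encoded by Clec7a. In humans, variants at the MS4A locus are linked to Alzheimer's disease risk and to the level of soluble TREM2, the shed part of a microglial receptor. The family also holds Ms4a1, which encodes the B cell antigen CD20, and Ms4a2, which encodes the beta chain of the high-affinity IgE receptor.

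The number of reads assigned to genes was 20606776 in replicate 1, 22576720 in replicate 2, 23292655 in replicate 3 and 20360121 in replicate 4. A level in CPM is a gene's count after scaling every library to the same total of such reads. All 10 listed microglia markers reached 1 CPM in each library, and their summed level was 21713 to 36335 CPM. Replicates 2 and 3 lay closer to each other than any other pair, with a chi-square of 51.7 per gene between them against 236 to 414 for the other pairs. Each pair thus differed by more than counting noise, so no files were merged. Repeat libraries of 1 RNA could differ by more than counting noise too. The summed level of 14 immediate early genes was 4797, 57520, 49898 and 5236 CPM in replicates 1 to 4, and their part in the MS4A values was not tested.

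Several MS4A genes are close copies of each other, and 2 pairs are also alike in their promoters. The stretches of 250 bases before the RefSeq start of Ms4a6b and Ms4a6c (GRCm38.p6, plus strand, chr19:11518309-11518558 and chr19:11469118-11469367) are shown because the levels of these 2 copies took different courses across the libraries. The capitals mark the longest run that both stretches share, 48 bases, which ends 71 bases before the start of Ms4a6b and 2 bases before that of Ms4a6c. In a global alignment with free ends, 85.1% of the 175 aligned bases were identical. Apart from this pair and the next, promoters of different members gave 57.8% to 70.3% in the same alignment.
Ms4a6b: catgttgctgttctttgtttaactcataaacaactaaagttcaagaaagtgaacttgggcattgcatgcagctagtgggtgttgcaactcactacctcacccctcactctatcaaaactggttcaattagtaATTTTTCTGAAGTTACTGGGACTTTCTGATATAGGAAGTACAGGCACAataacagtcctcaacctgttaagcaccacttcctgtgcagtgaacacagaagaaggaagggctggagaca
Ms4a6c: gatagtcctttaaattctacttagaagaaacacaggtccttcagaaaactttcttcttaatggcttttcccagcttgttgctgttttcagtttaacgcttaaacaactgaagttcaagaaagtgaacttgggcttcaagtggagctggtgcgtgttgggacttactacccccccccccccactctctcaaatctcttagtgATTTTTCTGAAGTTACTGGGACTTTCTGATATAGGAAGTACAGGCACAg

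Ms4a4b and Ms4a4c form the other pair of close copies (GRCm38.p6, plus strand, chr19:11443308-11443557 and chr19:11407411-11407660). They are shown for the same reason, and their longest shared run has 20 bases, with 78.9% of the 232 aligned bases identical.
Ms4a4b: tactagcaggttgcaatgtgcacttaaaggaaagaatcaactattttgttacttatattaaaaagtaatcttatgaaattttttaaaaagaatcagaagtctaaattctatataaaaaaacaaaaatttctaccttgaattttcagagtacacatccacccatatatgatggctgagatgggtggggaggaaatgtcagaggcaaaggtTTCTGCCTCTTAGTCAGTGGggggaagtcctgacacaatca
Ms4a4c: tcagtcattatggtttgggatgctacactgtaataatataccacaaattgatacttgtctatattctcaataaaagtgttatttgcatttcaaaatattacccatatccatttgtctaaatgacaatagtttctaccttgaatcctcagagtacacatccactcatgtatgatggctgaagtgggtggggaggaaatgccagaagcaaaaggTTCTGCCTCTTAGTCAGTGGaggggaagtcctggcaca

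The table of promoters held 7 entries for 6 of the 7 genes, 2 of them for Ms4a7. Motifs of factors known from myeloid cells were searched in the 250 bases on both strands. The letters AGGAAGT, a core of ETS factor sites, were found in the promoters of Ms4a6b and Ms4a6c and in none of the other 5 entries, against 7.69% of all 32851 promoters in the table. In the capitals above, the match lies 86 bases before the start of Ms4a6b and 17 bases before that of Ms4a6c, and Ms4a6b held another on the opposite strand at 43 bases. The longer letters GAGGAAGT, which contain that core, were in none of the 7 entries and in 2.44% of all promoters. The interferon response core (GAAA, any 2 bases, GAAA) and the composite ETS and IRF core (GGAA, any 2 bases, GAAA) were likewise in none, against 2.98% and 2.30% of all promoters. These matches describe letters only.

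Together the 7 genes took 0.0584% ± 0.00567 of the counts, or 584 ± 56.7 CPM (SD, n = 4). Their summed level was 640, 509, 611 and 576 CPM in replicates 1 to 4. Across all libraries, 5 of the 7 stayed at or above 1 CPM, beside 38.8% of the 21681 genes with a count in any library. At 10 CPM these figures were 4 of 7 members and 26.4% of genes, and at 100 CPM they were 2 of 7 members and 5.28% of genes. The median of the members' mean levels was 64.6 CPM, beside 3.02 CPM for all genes with a count. In sorted cells measured in bulk, fewer cells of a type and less RNA per cell cannot be told apart.

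Ms4a6d, Ms4a6b and Ms4a6c carried most of the family's counts, 90.3%, 81.7%, 83.2% and 83.1% in replicates 1 to 4, with 95% Clopper-Pearson intervals no wider than 81.0 to 82.4 in replicate 2. Ms4a4a, Ms4a4b and Ms4a4c together took 1.77%, 6.71%, 5.16% and 2.40%. The share of the Ms4a6 genes in replicate 1 lay above the intervals of the other 3 libraries, whose shares lay between 81.7% and 83.2%. Intervals cover counting error only.

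Ms4a6d, a gene of macrophages, stood at 216 ± 68.1 CPM (SD, n = 4). It gave 305, 184, 230 and 147 CPM in replicates 1 to 4, highest in replicate 1 and lowest in replicate 4, a 2.08-fold range. Ms4a6b stood at nearly the same mean, 214 ± 69.7 CPM, with 211, 149, 185 and 312 CPM. Its course was different, because replicate 4 was the highest and replicate 2 the lowest, a 2.09-fold range. By mean level Ms4a6d lay at percentile 96.9 of genes with a count and Ms4a6b at 96.8.

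The balance of these 2 genes differed in replicate 4. Ms4a6b took 40.9% (95% interval 39.99 to 41.9), 44.7% (43.6 to 45.9) and 44.6% (43.6 to 45.6) of their joint counts in replicates 1 to 3. In replicate 4 it took 68.0% (67.0 to 68.9). Ms4a6d thus had the higher count in 3 libraries and Ms4a6b in replicate 4. Neutrophil markers were also highest in replicate 4, with a summed level of 1501, 286, 276 and 2403 CPM over 9 genes, 8 of which reached 1 CPM in each library. Of these, the calprotectin gene S100a8 gave 480, 80.3, 73.4 and 979 CPM, while the defining marker Ly6g had 43, 28, 0 and 0 counts. Ms4a6b and the neutrophil sum were both higher in replicates 1 and 4 than in replicates 2 and 3. The same held for the summed microglia markers, at 36335, 21863, 21713 and 35012 CPM in replicates 1 to 4. The part of neutrophils in the Ms4a6b level was not tested.

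Ms4a6c, a gene known from mouse monocytes, stood at 64.6 ± 32.2 CPM (SD, n = 4). It gave 62.3, 82.3, 93.6 and 20.4 CPM in replicates 1 to 4, so replicate 4 was well below the other 3 and the range was 4.59-fold. The 9 monocyte markers, 4 of which reached 1 CPM in each library, had a summed level of 126, 78.7, 75.2 and 208 CPM, of which Chil3 made up 72.6, 27.0, 21.9 and 124 CPM. The median of the list was 4.08, 8.86, 7.51 and 0.0491 CPM, lowest in replicate 4, so sum and median ran in different directions. Ccr2, a chemokine receptor of monocytes, stood at 28.9, 14.8, 18.2 and 0.0491 CPM. Fn1 and Treml4 had no count in replicates 1 and 4, and Vcan and Spn had counts in replicate 2 only. By contrast, Chil3, Ly6c2, Plac8 and Ace were highest in replicate 4, where Ly6c2 stood at 31.2, Plac8 at 28.8 and Ace at 24.4 CPM. The part of monocytes in the Ms4a6c level was not tested.

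Counting can bear on Ms4a6c more than on the others. In the GENCODE M21 annotation 1088 of its 2050 exon bases overlap BE692007, a gene on the opposite strand, and the strand setting of the counting is not given in the sources used here. BE692007 itself gave 234, 153, 160 and 5 counts in replicates 1 to 4, against 1283, 1857, 2181 and 415 for Ms4a6c. Of the 100-base windows of Ms4a6c transcripts, 45.8% also occurred in transcripts of another gene on either strand. That share was 1.66% for Ms4a4c, 0.473% for Ms4a4b and 0% for Ms4a4a, Ms4a6b, Ms4a6d and Ms4a7. With 50-base windows it was 8.19% for Ms4a4c, 3.57% for Ms4a6b, 2.54% for Ms4a6d, 2.40% for Ms4a4b, 0.306% for Ms4a7 and 0% for Ms4a4a.

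**Figure D1:**
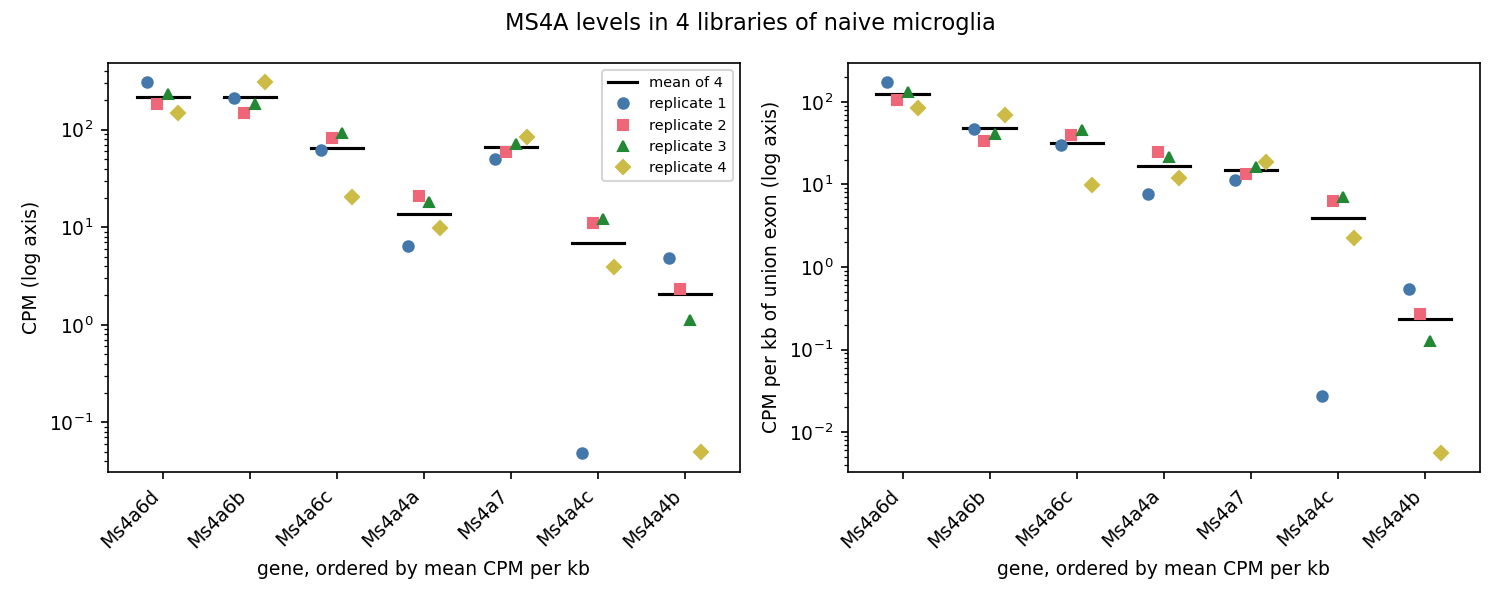
Levels of the 7 MS4A genes in 4 libraries of naive microglia, as CPM (left) and as CPM per kb of union exon (right), both on log axes; each symbol is 1 library and each bar the mean of 4. Ms4a6d and Ms4a6b lie at about the same CPM, while per kb Ms4a6d averages 125 and Ms4a6b 47.8, and Ms4a4c and Ms4a4b each have 1 library at 1 count.

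Ms4a7, which is known from border-associated macrophages and from bone marrow-derived macrophages in the brain, stood at 66.1 ± 14.5 CPM (SD, n = 4). It gave 50.6, 58.7, 71.4 and 83.5 CPM in replicates 1 to 4, and its 1.65-fold range was the narrowest of the 5 members that reached 1 CPM in every library. The border-associated macrophage list, which does not include it, spread more, with a summed level of 264, 773, 846 and 394 CPM. Ms4a7 was thus highest in replicate 4, while that list was highest in replicates 2 and 3.

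Ms4a4a was lower, at 13.8 ± 6.73 CPM (SD, n = 4), with 6.45, 20.7, 18.2 and 9.87 CPM in replicates 1 to 4. Replicates 2 and 3 were high and replicates 1 and 4 low, a 3.20-fold range. The same order of libraries was seen in Mrc1, the mannose receptor gene of border-associated macrophages, at 68.9, 213, 191 and 106 CPM. The Ms4a4a count was 9.37%, 9.70%, 9.50% and 9.35% of the Mrc1 count in replicates 1 to 4. For Ms4a7 that share was 73.4%, 27.6%, 37.4% and 79.1%.

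Likeness of profile was measured by the root mean square difference of log2(CPM + 0.5) over the 4 libraries after centring each gene. Among 8174 other genes averaging at least 10 CPM, Mrc1 was the nearest to Ms4a4a, at 0.02 on the log2 scale, and the macrophage chemokine gene Pf4 was the tenth, at 0.08. The next 2 after Mrc1 were Nucks1 and Actg1, a cytoplasmic actin gene, at 0.05 each, and the median over all compared genes was 0.89. Stab1, Clec10a, Cd209f and Cd163 of the same list lay at 0.46, 0.61, 0.63 and 0.63, and Cbr2, F13a1 and Lyve1 at 0.81, 1.02 and 2.42. With 4 libraries such a match describes these libraries only, and 70 genes lay within 0.2 of Ms4a4a.

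The nearest genes to Ms4a6c were Mysm1, a histone deubiquitinase gene, at 0.07, Cradd at 0.08 and Matr3, which encodes a nuclear matrix protein, at 0.08, with a median of 1.04 over all compared genes. None of the 5 monocyte markers averaging at least 10 CPM came closer to Ms4a6c than 1.52. Mysm1 gave 95.9, 132, 148 and 28.9 CPM in replicates 1 to 4, so it too was lowest in replicate 4.

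Ms4a4c and Ms4a4b did not reach 1 CPM in every library. Ms4a4c, known from mouse monocytes, gave 1, 251, 286 and 79 counts in replicates 1 to 4, which is 0.0485, 11.1, 12.3 and 3.88 CPM. It was thus present in 3 libraries and at 1 count in replicate 1. Ms4a4b, known from T cells, gave 99, 53, 26 and 1 counts, which is 4.80, 2.35, 1.12 and 0.0491 CPM.

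Replicate 1 was the highest library for Ms4a4b and the lowest for Ms4a4c. Replicate 4 was the lowest for Ms4a4b and the second lowest for Ms4a4c. No fold is given for either gene across libraries, because a single count lies under the floor of 3 counts, 0.129 to 0.147 CPM in these libraries. The T and NK cell list had a summed level of 26.1, 32.0, 38.9 and 0.295 CPM in replicates 1 to 4, and none of its 12 genes reached 1 CPM in every library. Most of that sum was Il7r, at 26.0, 21.2, 23.3 and 0.196 CPM. The T cell receptor complex genes Cd3e, Cd3d and Cd3g and Trac had no count in replicate 1, where Ms4a4b was highest. The part of T cells in the Ms4a4b level was not tested.

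**Figure D2:**
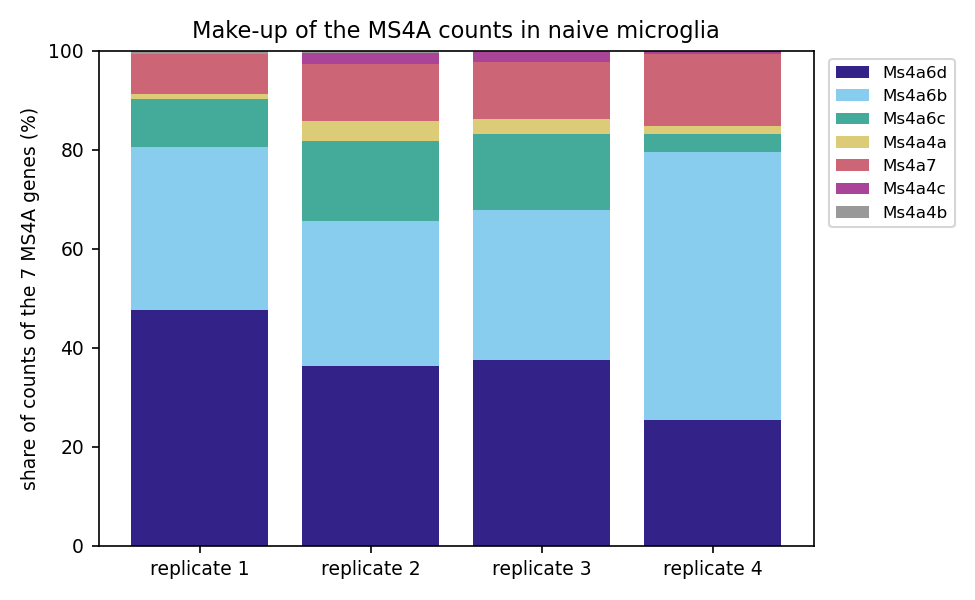
Share of the summed counts of the 7 MS4A genes that each gene took, in percent, 1 stacked bar for each library of naive microglia. Ms4a6b takes 54.1% in replicate 4 and 29.3% to 33.0% in the other libraries, and Ms4a6d 25.5% in replicate 4 and 36.2% to 47.6% elsewhere.

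Levels of different genes were compared per kb of union exon, with lengths from GENCODE M21. The order was Ms4a6d at 125 ± 39.2 CPM per kb, Ms4a6b at 47.8 ± 15.5, Ms4a6c at 31.5 ± 15.7, Ms4a4a at 16.5 ± 8.05, Ms4a7 at 14.8 ± 3.25, Ms4a4c at 3.90 ± 3.34 and Ms4a4b at 0.237 ± 0.233 (SD, n = 4). Per kb, Ms4a6d lay at percentile 98.2 of 20209 genes with a length and a count, Ms4a6b at 94.9 and Ms4a6c at 92.3. Ms4a4b lay at percentile 30.7.

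Of the 21 pairs of members, 16 kept 1 order per kb of union exon in 4 of 4 libraries. Per kb, Ms4a6d was above each of the other 6 in every library. Its log2 ratio per kb to Ms4a6b was 1.90, 1.67, 1.68 and 0.28 in replicates 1 to 4, a mean of 1.39 ± 0.74 (SD, n = 4), and without the length correction the mean was 0.02. The size of that difference therefore rests on exon lengths of 1735 bases for Ms4a6d and 4485 bases for Ms4a6b. Its direction in replicate 4 does too, because there Ms4a6b had the higher count, 6346 against 2988 for Ms4a6d. Cells need not use every annotated exon. By exact sign-flip permutation over libraries (two-sided), each of the 16 pairs reached adjusted p = 0.164 over the 21 pairs. With 16 sign patterns over 4 libraries, the unadjusted test cannot reach 0.05 either, so no pair could pass.

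Several neighbours in the order did not differ beyond their spread. Ms4a6b over Ms4a6c gave log2 ratios of 0.63, -0.27, -0.15 and 2.80 in replicates 1 to 4, a mean of 0.76 ± 1.42, which was -0.13 when only exon without shared windows was counted. Ms4a6c over Ms4a4a was positive in 3 of 4 libraries, at 0.87 ± 0.92 (SD, n = 4). Ms4a4a over Ms4a7 gave -0.55, 0.91, 0.44 and -0.66, a mean of 0.03 ± 0.77, and Ms4a7 was the higher of the pair by 2.38 on the log2 scale without the length correction. Ms4a4c over Ms4a4b was positive in 3 of 4 libraries and negative in replicate 1. The exact permutation test gave adjusted p = 0.525 for Ms4a6b over Ms4a6c, 0.276 for Ms4a6c over Ms4a4a, 1 for Ms4a4a over Ms4a7 and 0.276 for Ms4a4c over Ms4a4b.

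Spread between libraries was then tested for every gene by setting its quasi-dispersion against the trend at its expression level, in an edgeR quasi-likelihood fit with an intercept only. The filter on low counts was passed by 5 of the 7 members, and Ms4a4b and Ms4a4c did not pass it. No member was called at an adjusted p under 0.05, and the same holds for the whole table, where 0 of 9075 genes (0%) were called. At an unadjusted p under 0.05 there were 395 such genes, none of them a member, robust edgeR estimation called 0 genes and DESeq2 called 0 dispersion outliers. With 4 libraries this test can call only very wide spreads. Even the immediate early gene Fosb, from 2.72 to 328 CPM between libraries, was not called (edgeR adjusted p = 0.944). Simulated data were given less spread than these libraries. There the test called 1 of 100 genes raised 4-fold in some libraries, and 98 of 100 raised 16-fold. A missed threshold thus does not show that a member varied as little as the trend.

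Ms4a6c had the widest spread of the 5, at 1.96 above the trend on the log2 scale, percentile 89.2 of all genes tested. Its adjusted p was 0.944 in the edgeR fit. Without replicate 4 it was 0.07 above the trend, so its position rests on that library. Ms4a6d lay 0.81 above the trend, and Ms4a4a and Ms4a6b at the trend, 0.06 above it each. Ms4a7 had the smallest spread of the 5, at -1.51 and percentile 21.1, but not with every setting. Without replicate 4 it stood at -0.59 and Ms4a6b at -0.90, and with no filter on low counts Ms4a7 stood at -1.05 and Ms4a4a at -1.07. With 1 library left out, Ms4a6c ranged from 0.07 to 2.68, Ms4a6d from 0.27 to 1.09, Ms4a4a from -0.42 to 0.91, Ms4a6b from -0.90 to 0.76 and Ms4a7 from -2.60 to -0.59 on the log2 scale, and each lowest or highest value came without replicate 1, 2 or 4. The median of the 5 was 0.06 on the log2 scale, beside -0.09 for all 9075 genes tested.

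**Figure D3:**
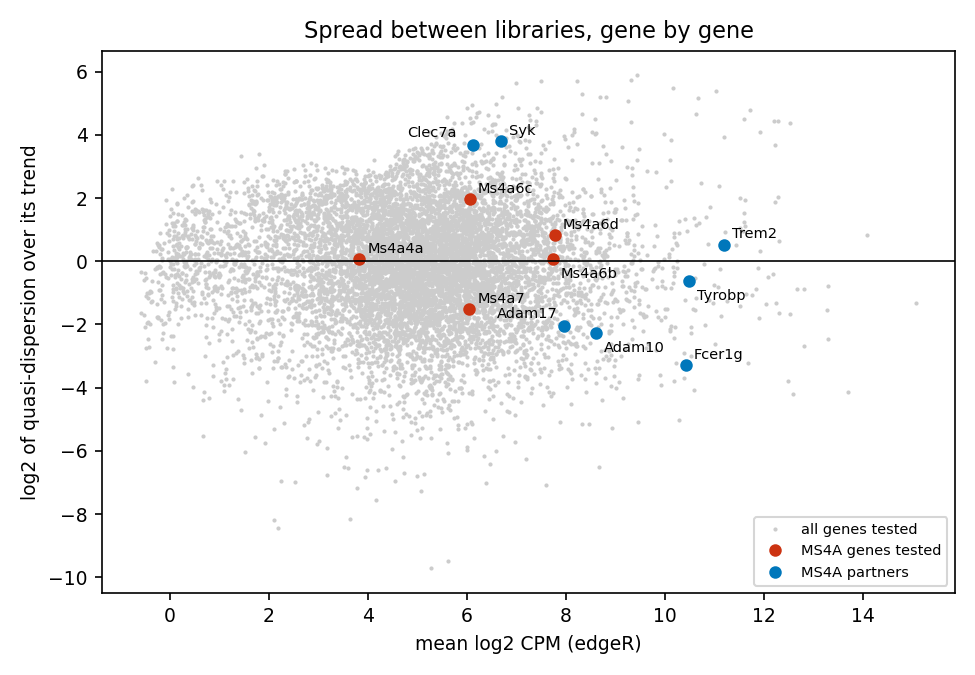
Quasi-dispersion of each gene over the trend (vertical axis, log2) against its mean log2 CPM (horizontal axis) in the edgeR fit over 4 libraries; grey points are all 9075 genes tested, red the 5 MS4A genes tested and blue the 7 partner genes. Ms4a6c lies 1.96 above the trend and Ms4a7 1.51 below it, and the partners Clec7a and Syk lie at 3.68 and 3.80.

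The partners with which MS4A proteins are studied in macrophages all reached 1 CPM in each library, 7 of 7. The share was 38.8% for the 21681 genes with a count in any library. None of the 7 was called for its spread, but 0 of all 9075 genes tested were called. Trem2, a lipid-sensing receptor of microglia, stood at 2351 ± 871 CPM (SD, n = 4), and its signalling adaptor gene Tyrobp at 1443 ± 407 CPM. Trem2 gave 2991, 1500, 1706 and 3205 CPM in replicates 1 to 4, higher in replicates 1 and 4 than in replicates 2 and 3. The proteases that shed TREM2 were steadier, with Adam10 at 387 ± 51.0 CPM and Adam17 at 248 ± 41.7 CPM. The adaptor gene Fcer1g, which encodes the Fc receptor gamma chain, stood at 1363 ± 124 CPM.

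Clec7a, the dectin-1 gene, gave 73.6, 95.5, 98.4 and 4.13 CPM in replicates 1 to 4. Syk, the kinase that dectin-1 signals through, gave 128, 152, 112 and 8.79 CPM. Both were high in replicates 1 to 3 and low in replicate 4, as Ms4a6c was, whereas Ms4a4a was low in replicates 1 and 4. By likeness of profile, however, Clec7a lay 1.02 and Syk 0.87 from Ms4a6c, beside a median of 1.04 over all compared genes. The log2 dispersion over the trend was 3.68 for Clec7a and 3.80 for Syk, each with an edgeR adjusted p of 0.944. Replicate 4 also had the fewest genes with a count, 13944 against 14850, 18978 and 18431 in replicates 1 to 3, and the part of that library in these values was not tested.

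**Figure D4:**
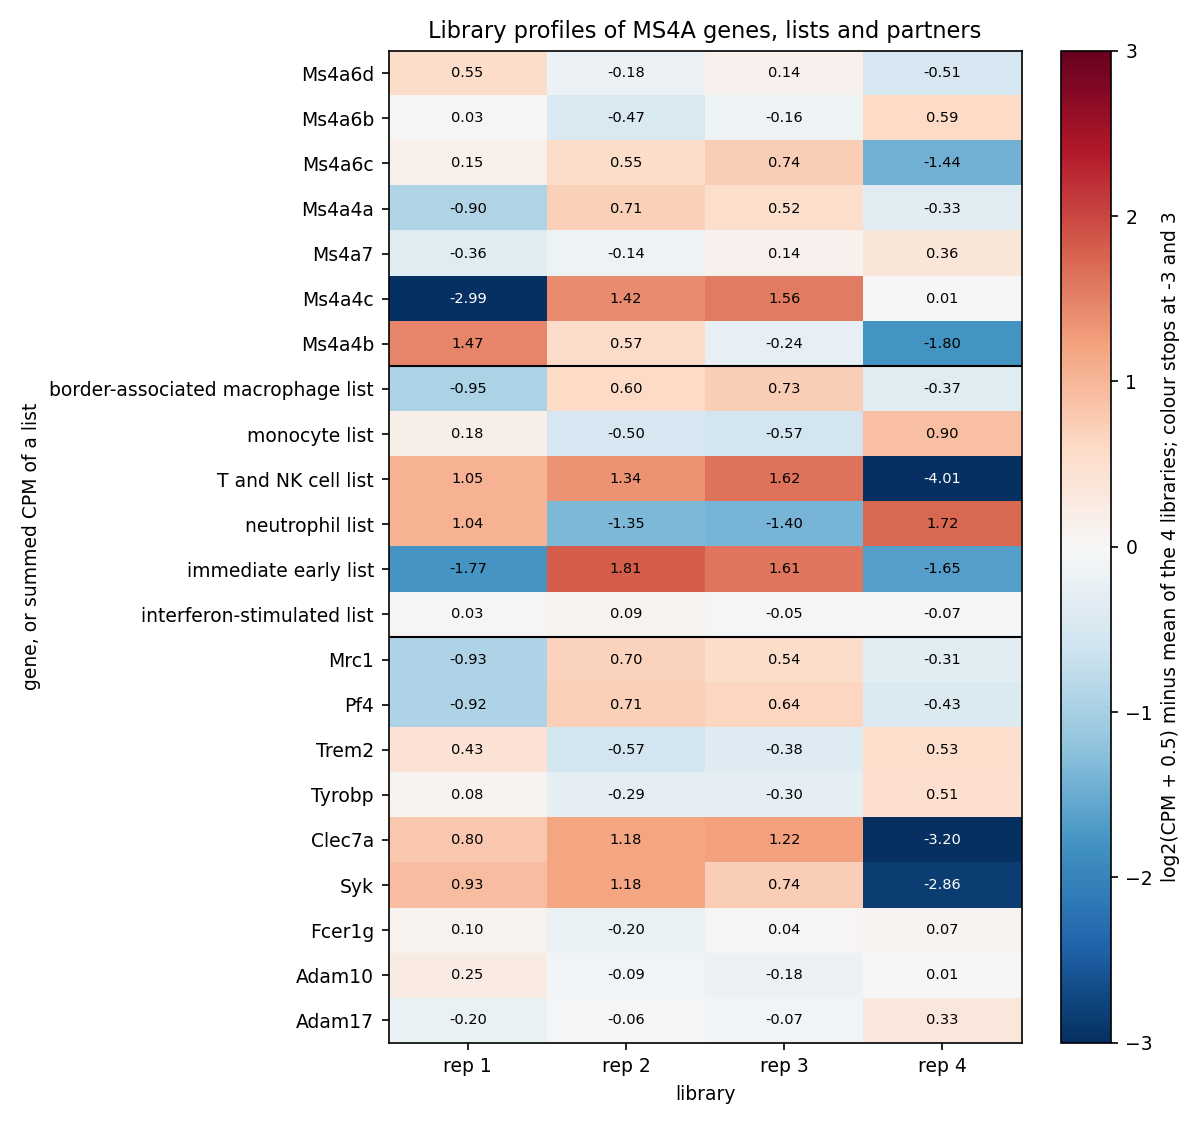
Library profiles of the MS4A genes (top), of summed marker and programme lists (middle) and of Mrc1, Pf4 and the partners (bottom), as log2(CPM + 0.5) minus the mean of the 4 libraries; red is above and blue below that mean. Ms4a4a follows Mrc1 and Pf4, the border-associated macrophage genes of the list nearest to it, while the others compared lay 0.46 to 2.42 from it. Ms4a6c, Clec7a and Syk are each lowest in replicate 4.

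The summed level of 10 interferon-stimulated genes was 254, 267, 241 and 239 CPM in replicates 1 to 4. Its largest part came from Bst2, a tetherin gene, at 104 to 129 CPM. Single genes of the list were less even. Isg15, which encodes a ubiquitin-like protein, gave 183, 513, 518 and 122 counts, and Ifit1, which encodes an antiviral RNA-binding protein, gave 2, 96, 120 and 1. Both were higher in replicates 2 and 3 than in replicates 1 and 4, as Ms4a4c was. Rsad2 was so too, but Bst2, Ifit2, Ifit3, Irf7, Oasl2 and Usp18 were not, and Ifi44 had counts in replicate 2 only. In replicates 1 to 4 Ifit3 gave 47.5, 35.7, 32.6 and 30.0 CPM and Usp18 29.7, 17.8, 10.7 and 29.3 CPM. The part of interferon signalling in the Ms4a4c level was not tested. The immediate early list was high in replicates 2 and 3, as were Ms4a4a and Ms4a4c, while Ms4a6d was highest in replicate 1 and Ms4a6b and Ms4a7 in replicate 4. The order of the libraries was the same for each of the 7 members with TMM scaling, with DESeq2 size factors and with the immediate early genes left out of the total.

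The other 14 Ms4a rows were at or near 0. No count in any library was found for 12 of them, Ms4a1 and Ms4a2 among them, along with Ms4a4d, Ms4a5, Ms4a8a, Ms4a10, Ms4a12, Ms4a13, Ms4a15, Ms4a18, Ms4a19 and Ms4a20, which allows a level of up to 0.147 CPM in the shallowest library. Ms4a1 was at 0 although B cell transcripts were present, with Cd79b at 79.8, 18.3, 23.4 and 50.8 CPM in replicates 1 to 4. Ms4a3, a gene of granulocyte and monocyte progenitors, gave 2, 8, 0 and 0 counts, beside a summed level of 26.2 to 53.4 CPM for the 4 granulocyte progenitor genes. Of these genes 2 reached 1 CPM in every library, and Mpo was the highest by mean, at 15.4 to 34.2 CPM. Ms4a14 gave 57, 17, 1 and 0 counts in replicates 1 to 4, which is 2.77 CPM in replicate 1 and under 1 CPM in the others.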

How the data were processed

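The authors deposited raw read counts per gene symbol, 1 file per library. Per the submitters' processing notes the tools were HTSeq 0.11.2, SAMtools 1.16.1 and STAR 2.7.10a, with build GRCm39; the sources used here give no annotation, strand setting or read filter. The 5 closing rows of reads given to no gene, 19.9% to 22.7% of a file, were left out; alignments that were not unique made up 3.46% to 4.03%. CPM used the total assigned to genes. Spread was tested with edgeR 4.0.16 in R 4.3.3 (filterByExpr with a minimum count of 10, TMM, intercept-only quasi-likelihood fit, upper-tail F test against the trend, Benjamini-Hochberg over all genes tested), after a test on simulated data. DESeq2 1.42.0 gave alternatives. Ratios between members used (count + 0.5) per kb within a library. Exon lengths and transcript windows came from GENCODE M21 and promoters from RefSeq, both GRCm38, matched by symbol (89.1% of gene rows have a length); no coordinate was set against the counts. Python 3.11.15 with scipy 1.17.1, pandas 2.3.3, Biopython 1.88 and matplotlib 3.10.9 did the rest.

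Members, lists and tests were chosen with earlier results of these data known. Named genes are the members, the other Ms4a rows, the partners and relatives, up to 3 leading genes of each list and the 3 genes nearest in profile to each member at 10 CPM or more; further list genes, the other Cd3 and Trac genes, BE692007 and the ranks of the listed macrophage genes were added after their values were seen, and so were the motifs.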

Additional observations from a re-analysis of the deposited data

How the results depend on the processing

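The number of genes called for spread was 0 with every setting, namely TMM, DESeq2 size factors, no filter on low counts, robust estimation (added after seeing the data), DESeq2's dispersion outliers and each library left out in turn, and so was the number of members called. The summed MS4A level was 565 to 609 CPM with 1 library left out and was 602 CPM with the immediate early genes left out of the total. TMM moved all genes by -0.11 to 0.08 on the log2 scale depending on the library. The number of pairs in 1 order was 16 to 18. The sign of the mean log2 ratio changed in 2 pairs without length correction (Ms4a6c over Ms4a7 to -0.21, Ms4a4a over Ms4a7 to -2.38), in 1 pair with exon free of shared windows, added after seeing the data (Ms4a6b over Ms4a6c to -0.13), and for Ms4a4a over Ms4a7 with the longest transcript (-0.27), without replicate 2 (-0.26) and without replicate 3 (-0.10), where leaving out 1 library gave -0.26 to 0.27. No call rested on any of these pairs. No paired analysis was possible because there is 1 group. Genes at 1 count in a library, Ms4a4b and Ms4a4c, lie below what this depth can measure there.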

Other observations

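Tmem176a and Tmem176b, which encode tetraspan proteins related to the MS4A family, had higher mean CPM than any MS4A member. These means are not corrected for exon length, and in replicate 3 Ms4a6d, at 230 CPM, was above Tmem176a. Tmem176b stood at 401 ± 88.9 CPM and Tmem176a at 256 ± 63.7 CPM (SD, n = 4). In replicates 1 to 4 Tmem176b gave 397, 334, 345 and 528 CPM and Tmem176a gave 305, 194, 208 and 317 CPM. Both were highest in replicate 4 and lowest in replicate 2, as Ms4a6b was, and their spread lay 1.35 and 0.60 below the trend on the log2 scale.

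The genes nearest in profile to the other members are named as a description of these 4 libraries. For Ms4a6b they were Sf3b6, a splicing factor gene, Atp5o, a subunit gene of ATP synthase, and Pik3ip1, at 0.02, 0.02 and 0.03 on the log2 scale. For Ms4a6d they were Mrps12, a mitochondrial ribosomal protein gene, Cds2 and Ecd, at 0.02, 0.03 and 0.04. For Ms4a7 they were Stx2, a syntaxin gene, Taf8 and Ggnbp2, at 0.03, 0.04 and 0.05. As many as 668 genes lay within 0.2 of Ms4a6b, 448 within 0.2 of Ms4a7 and 250 within 0.2 of Ms4a6d, against 62 for Ms4a6c. Of the border-associated macrophage list, Cd163 came nearest to Ms4a7, at 0.11. The median over the 9 genes of that list that were compared was 0.69, beside 0.57 over all compared genes.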
